A study of Mus musculus with 8 samples.

Results

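The transcripts described here encode the proteins that coat lipid droplets and release their fatty acids. They comprise 10 genes of 54091 in the table: the perilipins Plin2, Plin3, Plin4 and Plin5, the droplet-fusion protein gene Cidec, the lipases Pnpla2, Lipe and Mgll, and the lipase regulators Abhd5 and G0s2. They were taken by symbol, each matched 1 row, and all 10 were among the 13141 genes tested. RNA was sequenced from the white quadriceps, in which fast glycolytic fibres predominate. The 8 mice were males of 11 to 14 weeks. The Acot2 muscle knockout group held 4 mice (knockouts 5 to 8) that carried Cre recombinase under the Ckm (muscle creatine kinase) promoter, which is active in muscle fibres, together with floxed Acot2. The floxed control group held 4 mice (floxed controls 1 to 4) with the Loxp/Loxp genotype. Both groups had fasted overnight for 14 h and the muscle was taken in the morning. No group with Cre alone was used here, and an effect of Cre cannot be told apart from loss of Acot2. Every mouse was fasted, so the values show muscle in 1 nutritional state.

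Muscle fibres store fatty acids as triglyceride in droplets that lie against the mitochondria. Perilipins form the droplet coat and limit the access of lipases to the lipid. Adipose triglyceride lipase, the product of Pnpla2, removes the first fatty acid; hormone-sensitive lipase (Lipe) removes the next, and monoacylglycerol lipase (Mgll) releases the last from glycerol. The product of Abhd5 (CGI-58) activates adipose triglyceride lipase, and that of G0s2 inhibits it. Fatty acids from this pathway are oxidized in mitochondria and also serve as ligands of the nuclear receptors called PPARs, which in rodents are known to raise several coat genes in fasting. Acot2 encodes a mitochondrial thioesterase that splits acyl-CoA into fatty acid and coenzyme A, downstream of droplet lipolysis.

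PPARs bind DNA as dimers with RXR at repeats of the hexamer AGGTCA, and the promoters of the members were searched for it. The sequences are from RefSeq on GRCm38.p6 and run from 250 bases before to 50 after an annotated start. All 10 genes matched, with 14 windows in all because some genes have several starts. Of the 4 windows below, those of Plin2, Plin5 and Abhd5 are shown because these were the 3 genes with the hexamer in a window. That of Pnpla2 is shown because, of 9128 genes compared with Pnpla2, Ppara had the most similar pattern across the mice. Letters run 5′ to 3′ on the strand of the gene, and capitals mark AGGTCA or its reverse complement TGACCT.
Plin2 promoter, chr4:86670010-86670309, minus strand: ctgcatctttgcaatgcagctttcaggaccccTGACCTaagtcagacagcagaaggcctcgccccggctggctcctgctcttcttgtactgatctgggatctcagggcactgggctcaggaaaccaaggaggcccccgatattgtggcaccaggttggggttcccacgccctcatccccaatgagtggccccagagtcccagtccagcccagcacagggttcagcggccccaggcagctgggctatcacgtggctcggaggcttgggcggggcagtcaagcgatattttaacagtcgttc
Plin5 promoter, chr17:56117499-56117798, minus strand: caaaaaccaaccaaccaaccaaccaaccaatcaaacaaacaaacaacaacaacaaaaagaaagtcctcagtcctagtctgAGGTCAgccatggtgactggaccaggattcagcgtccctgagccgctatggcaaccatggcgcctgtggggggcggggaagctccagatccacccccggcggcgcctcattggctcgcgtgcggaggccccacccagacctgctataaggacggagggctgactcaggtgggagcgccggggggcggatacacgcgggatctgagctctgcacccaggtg
Abhd5 promoter, chr9:122351366-122351665, plus strand: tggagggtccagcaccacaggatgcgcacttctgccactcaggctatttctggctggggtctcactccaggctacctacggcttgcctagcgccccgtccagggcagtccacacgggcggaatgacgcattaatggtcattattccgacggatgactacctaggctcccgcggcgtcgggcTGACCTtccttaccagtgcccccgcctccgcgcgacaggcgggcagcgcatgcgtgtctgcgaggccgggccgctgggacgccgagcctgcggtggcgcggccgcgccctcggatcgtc
Pnpla2 promoter, chr7:141454938-141455237, plus strand: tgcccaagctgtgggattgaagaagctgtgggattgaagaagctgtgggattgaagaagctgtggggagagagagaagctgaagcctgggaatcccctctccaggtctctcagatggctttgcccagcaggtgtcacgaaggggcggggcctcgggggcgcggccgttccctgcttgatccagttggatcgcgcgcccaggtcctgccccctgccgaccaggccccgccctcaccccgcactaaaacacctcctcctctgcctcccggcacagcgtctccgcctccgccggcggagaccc
Counting the start base as 1 and the base before it as -1, the site of Plin2 begins at -218 on the opposite strand. The site of Plin5 begins at -170 on the strand of the gene, and that of Abhd5 at -69 on the opposite strand. A further start of Plin5 has a window that overlaps the one printed and holds another copy at 14. The hexamer, searched on both strands, was in 4 of the 14 windows and in 16.3% of all 32851 windows in the table. The full repeat AGGTCANAGGTCA, which has the hexamer at both ends, was in 0 of the 14 windows and in 0.0396% of all windows. A match describes these letters in this window only.

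The genes are spread over 6 chromosomes, and 3 perilipin genes share chromosome 17. In GRCm38 with the GENCODE annotation, Plin4 (chr17:56100591-56109803), Plin5 (chr17:56111601-56117596) and Plin3 (chr17:56277476-56292873) lie on the minus strand of chromosome 17. Between Plin4 and Plin5 lie 1797 bases, and between Plin5 and Plin3 159879. Plin2 is at chr4:86648386-86670060 on the minus strand. The lipase genes are Pnpla2 (chr7:141455198-141460743, plus strand), Lipe (chr7:25379527-25398710, minus strand) and Mgll (chr6:88724412-88828360, plus strand). The regulators are Abhd5 (chr9:122351608-122381524, plus strand) and G0s2 (chr1:193272161-193273217, minus strand), and Cidec is at chr6:113424634-113435760 on the minus strand. Plin4 overlaps Hdgfl2 and G0s2 overlaps Lamb3, in each case a gene on the other strand, while Lipe, Mgll and Abhd5 overlap antisense transcripts. Mgll also overlaps 3 unclassified transcripts on its own strand, Gm44005, Gm43999 and Gm44001, which strand cannot separate. The libraries were stranded, but the strand setting of the counting is not given in the sources used here, so the counts of these 5 genes carry that uncertainty.

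Reads on genes numbered 28659632 to 40977866 per library. The targeted gene Acot2 had 413, 312, 600 and 543 normalized counts in knockouts 5 to 8, against 1675, 3927, 2492 and 1530 in floxed controls 1 to 4. Its difference was -2.30 (SE 0.287, limma adjusted p = 0.087), with every knockout below every floxed control; over the alternatives its adjusted p ran from 0.0042 without the filter on low values to 0.758 with robust variance. Markers of fast glycolytic fibres were all detected, with summed normalized counts of 4386810 to 6730690 in knockouts and 5470810 to 6398740 in floxed controls. Knockout 7 stood apart in the summed level of 8 slow and oxidative fibre genes. The sum was 61441 in knockout 7 and 5401 to 9270 in the other 3 knockouts, against 5669 to 20457 in floxed controls. Most of it was Myh2, the myosin 2A gene, with 59055 normalized counts in knockout 7 and 18567 in floxed control 1. The Myh2 difference between genotypes was -0.009 (SE 0.809). Of the 8 genes, 7 were higher in the knockout, with a median difference of 1.22. Without knockout 7, 5 of the 8 were higher with a median of 0.56, while leaving out floxed control 4 gave 0.69 and leaving out knockout 8 gave 2.01. Markers of macrophages were higher in 8 of 8 genes and those of endothelial cells in 6 of 8. At an unadjusted limma p of 0.05, 5 macrophage and 4 endothelial markers were higher, beside 6.16% of all genes tested. Groups did not overlap in 2 markers of each list, beside 2.75% of all genes tested. After adjustment limma called 0 in each list. Sums for macrophages were 2155 to 3903 in knockouts against 1309 to 2316 in floxed controls. Those for endothelial cells were 8359 to 9999 in knockouts against 7313 to 8383 in floxed controls. Of 7 fibroblast markers, 6 were higher, and 0 passed the unadjusted p of 0.05. The sum for fibroblasts was 24018 to 55271 in knockouts and 24755 to 37220 in floxed controls. Whether these cells contribute to the values of the droplet genes was not tested.

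No member of the droplet and lipolysis set differed between knockout and floxed control beyond the spread between mice. Below, values are the authors' size-factor-normalized counts, and a difference is knockout minus floxed control on the log2(normalized count + 1) scale with the standard error (SE) of limma over 4 mice per group. With limma, 0 of 10 members passed a Benjamini-Hochberg adjusted p of 0.05, as did 0% of the 13141 genes tested. At an unadjusted p of 0.05 the members numbered 0 of 10, beside 6.16% of all genes tested (324 higher and 486 lower). Without knockout 5 the members at an unadjusted p of 0.05 were 3 of 10, all higher (Plin3, Plin5 and Abhd5, with limma p of 0.0231, 0.0269 and 0.0413 and adjusted p of 0.222, 0.236 and 0.277), beside 16.7% of all genes tested. With voom on recovered reads, 0 genes passed after adjustment and 756 before it. The groups overlapped in all 10 members, and they did not overlap in 2.75% of genes tested. The estimates were above 0 in 9 of 10 members with a median of 0.16, while 50.6% of all genes tested were above 0 and their median was 0.0031.

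The number of members with higher values depended on 1 mouse. Knockout 7 was the highest of the 8 libraries for 7 members: Plin2, Plin5, Pnpla2, Lipe, Mgll, Abhd5 and G0s2. Its 33658691 reads on genes lay within the range of the other libraries. Without it, 5 of 10 members were above 0 and the median was 0.012. Plin3 peaked in knockout 6, Plin4 in floxed control 1 and Cidec in floxed control 3. The lowest libraries were knockout 5, floxed control 1 and floxed control 4, each for 3 members, and knockout 6 for 1.

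**Figure D1:**
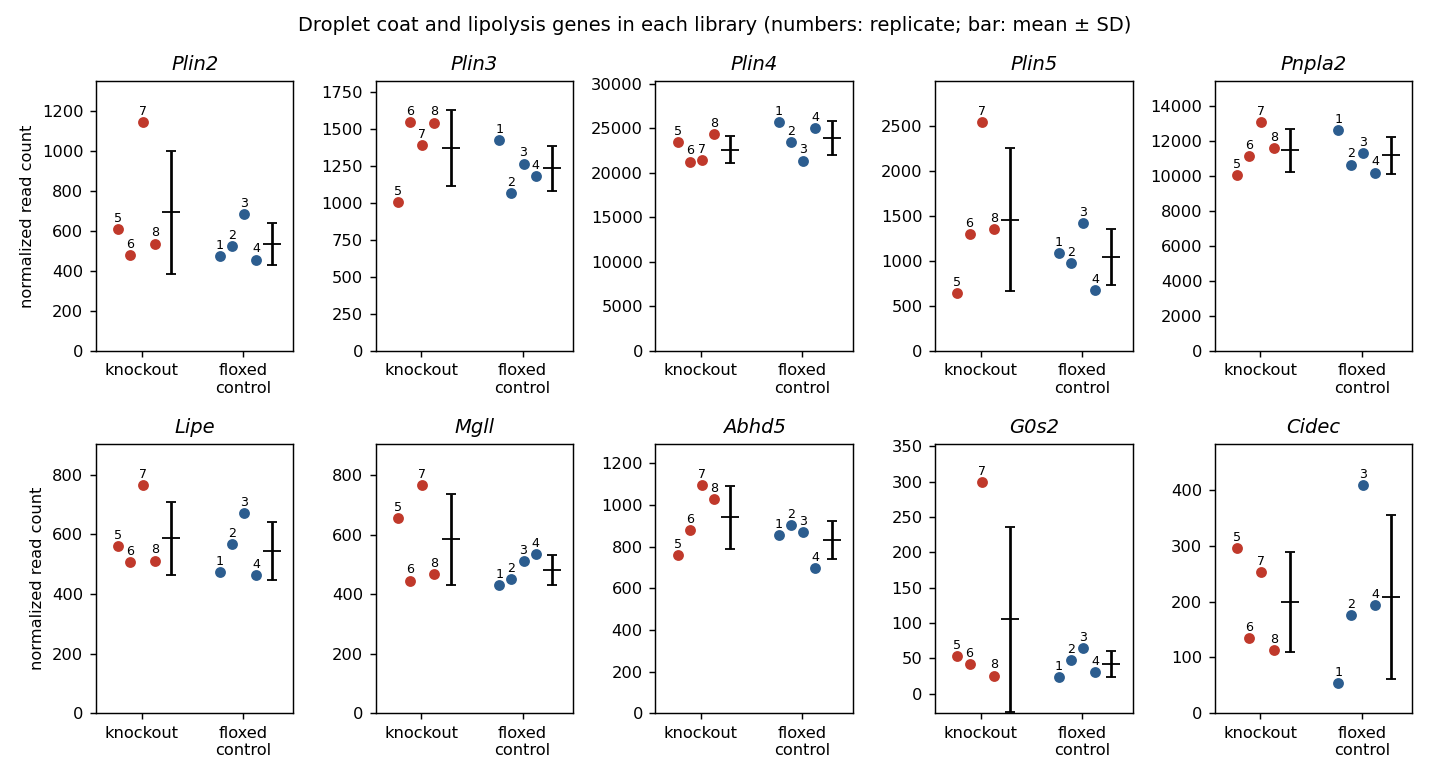
Normalized read count (linear axes) of the 10 members in each library, with knockouts in red left of floxed controls in blue; each point is 1 mouse, numbered by replicate, and the bar is the group mean ± SD (n = 4 each), which for G0s2 in knockouts reaches below 0. Knockout 7 is the highest point in 7 of the 10 panels, and the 2 groups overlap in every panel.

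**Figure D2:**
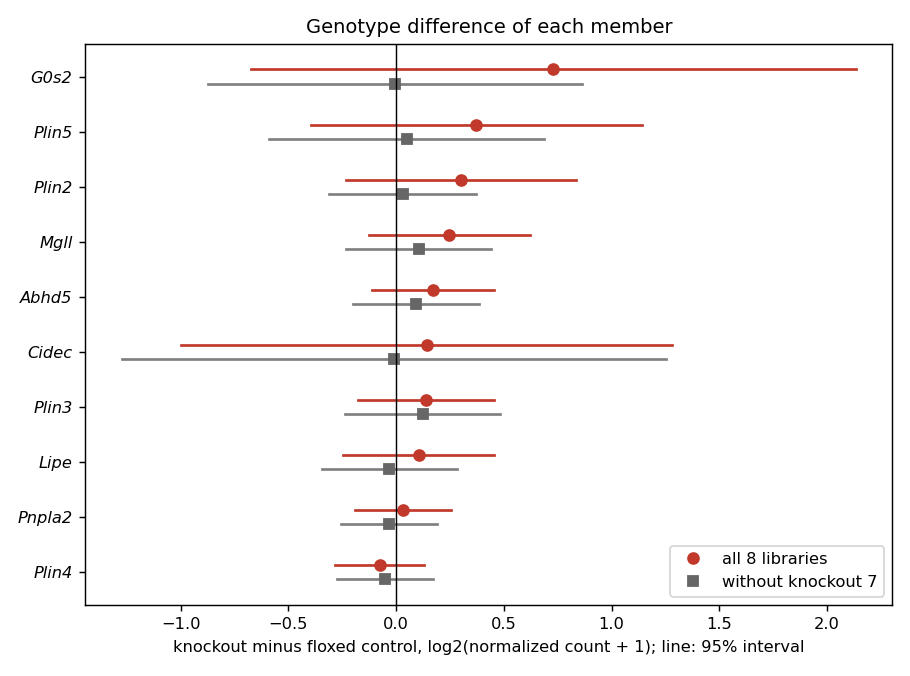
Difference of each member, knockout minus floxed control, on the log2(normalized count + 1) scale with its 95% interval from limma, over all 8 libraries (red circles) and without knockout 7 (grey squares). All intervals include 0, and the estimate of G0s2 is 0.73 over all libraries and -0.0051 without knockout 7.

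Among the coat proteins, Plin2 and Plin5 had higher means in the knockout that rested on knockout 7, the estimates for Plin3 and Plin4 were nearer to 0, and Cidec varied widely within both groups. Plin2 encodes the perilipin found on droplets of nearly all cells, whose amount follows the amount of stored lipid. Plin2 had 608, 479, 1143 and 536 normalized counts in knockouts 5 to 8, against 475, 522, 685 and 456 in floxed controls 1 to 4. Knockout 7 was highest and floxed control 3 came next, while the other 3 knockouts lay among the floxed controls. The Plin2 means were 692 ± 306 in knockouts and 534 ± 104 in floxed controls (SD, n = 4 each). The difference was 0.30 (SE 0.242, 95% interval -0.23 to 0.83, limma adjusted p = 0.794). Without knockout 7 the Plin2 difference was 0.029.

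Plin5 encodes the perilipin of oxidative tissues, which holds droplets against mitochondria and binds both adipose triglyceride lipase and CGI-58. Plin5 had 642, 1298, 2541 and 1348 normalized counts in knockouts 5 to 8, against 1089, 970, 1422 and 677 in floxed controls 1 to 4. Both the highest and the lowest library were knockouts, numbers 7 and 5. The Plin5 means were 1457 ± 791 in knockouts and 1040 ± 308 in floxed controls (SD, n = 4 each). Its difference of 0.37 had an SE of 0.349 and an interval from -0.40 to 1.14, which corresponds to 76.0% to 220.4% of the floxed control level (limma adjusted p = 0.828). It was 0.050 without knockout 7, 0.18 without floxed control 4 and 0.71 without knockout 5.

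Plin4 encodes a perilipin of adipocytes and muscle with a long run of repeats, and it was the only member with an estimate below 0. Plin4 had 23413, 21226, 21368 and 24362 normalized counts in knockouts 5 to 8, against 25664, 23402, 21359 and 24984 in floxed controls 1 to 4. The libraries of both groups were spread over the same narrow range, the highest being 1.21 times the lowest. The Plin4 difference was -0.077 (SE 0.0932, 95% interval -0.28 to 0.13, limma adjusted p = 0.855), with means of 22592 ± 1546 in knockouts and 23852 ± 1913 in floxed controls (SD, n = 4 each). It was -0.041 without floxed control 1 and -0.13 without floxed control 3.

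Plin3 encodes a perilipin that moves between cytosol and nascent droplets. Its normalized counts were 1005, 1548, 1393 and 1544 in knockouts 5 to 8, against 1426, 1066, 1268 and 1185 in floxed controls 1 to 4. Knockouts 6 and 8 lay above every floxed control and knockout 5 below every one. The Plin3 difference was 0.14 (SE 0.144, 95% interval -0.18 to 0.45, limma adjusted p = 0.836), with means of 1372 ± 255 in knockouts and 1236 ± 151 in floxed controls (SD, n = 4 each). It was 0.28 without knockout 5, 0.073 without knockout 6, 0.074 without knockout 8 and 0.069 without floxed control 2.

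Cidec encodes a protein at droplet contacts that moves lipid from small to large droplets, and it is known mainly from adipocytes. Cidec had 296, 134, 252 and 114 normalized counts in knockouts 5 to 8, against 54.7, 176, 409 and 194 in floxed controls 1 to 4. The floxed controls held both the highest and the lowest library. The Cidec mean was 199 ± 88.8 in knockouts and 208 ± 147 in floxed controls (SD, n = 4 each), while the difference on the log2 scale was 0.14 (SE 0.517, 95% interval -0.997 to 1.28, limma adjusted p = 0.959), so the means and the log2 values point in opposite directions. Without floxed control 1 it was -0.39, and without floxed control 3 it was 0.57.

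The lipases did not differ beyond the spread between mice, and Pnpla2 was measured the most tightly of them. Pnpla2 had 10036, 11116, 13062 and 11564 normalized counts in knockouts 5 to 8, against 12600, 10643, 11289 and 10182 in floxed controls 1 to 4. Knockout 7 was highest and knockout 5 lowest, with all floxed controls between them. Pnpla2 averaged 11445 ± 1254 in knockouts and 11178 ± 1051 in floxed controls (SD, n = 4 each). Its difference of 0.032 (SE 0.101, limma adjusted p = 0.950) had a 95% interval from 87.6% to 119.4% of the floxed control level. Knockout 7 decided its sign, which was -0.034 without that library, and it was -0.011 without floxed control 4.

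Lipe, which in adipocytes is switched on by protein kinase A, had 561, 508, 766 and 512 normalized counts in knockouts 5 to 8, against 475, 567, 671 and 463 in floxed controls 1 to 4. Again knockout 7 was highest and floxed control 3 next. The Lipe difference was 0.10 (SE 0.159, 95% interval -0.25 to 0.45, limma adjusted p = 0.879) and it was -0.031 without knockout 7. Means were 587 ± 122 in knockouts and 544 ± 96.7 in floxed controls (SD, n = 4 each).

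Mgll, which besides the last step of lipolysis ends the action of the endocannabinoid 2-arachidonoylglycerol, had 656, 447, 768 and 468 normalized counts in knockouts 5 to 8, against 430, 452, 511 and 535 in floxed controls 1 to 4. Knockouts 5 and 7 lay above every floxed control and knockouts 6 and 8 among them. The Mgll difference was 0.25 (SE 0.170, 95% interval -0.13 to 0.62, limma adjusted p = 0.765), the smallest adjusted p of the 10 members. Means were 585 ± 154 in knockouts and 482 ± 49.3 in floxed controls (SD, n = 4 each), and the difference was 0.10 without knockout 7.

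Of the regulators of adipose triglyceride lipase, the activator Abhd5 varied 1.57 times between its lowest and highest library and the inhibitor G0s2, the most variable member, 12.7 times. Abhd5 had 758, 879, 1097 and 1030 normalized counts in knockouts 5 to 8, against 856, 902, 868 and 699 in floxed controls 1 to 4. Knockouts 7 and 8 lay above every floxed control, and floxed control 4 below every knockout. The Abhd5 difference was 0.17 (SE 0.129, 95% interval -0.11 to 0.46, limma adjusted p = 0.785), with means of 941 ± 152 in knockouts and 831 ± 90.7 in floxed controls (SD, n = 4 each). It was 0.092 without knockout 7.

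G0s2 had 53.2, 41.4, 299.8 and 25.4 normalized counts in knockouts 5 to 8, against 23.6, 47.0, 64.6 and 30.2 in floxed controls 1 to 4. Knockout 7 held the highest G0s2 level by far, and the other 3 knockouts lay within the range of the floxed controls. The G0s2 means were 105 ± 130 in knockouts and 41.4 ± 18.4 in floxed controls (SD, n = 4 each). Without knockout 7 the SD of the knockouts was 13.9 (n = 3). The difference of 0.73 had an SE of 0.638 and an interval from -0.68 to 2.13 (limma adjusted p = 0.813), which covers 62.6% to 439% of the floxed control level, and it was -0.0051 without knockout 7.

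The groups were also compared, member by member, with a two-sided exact permutation test. Its 70 assignments of the 8 libraries allow no p below 0.0286. The 10 exact p-values ranged from 0.257 for Abhd5 to 0.886 for Cidec. They were 0.314 for Mgll, 0.343 for Plin4 and 0.4 for both Plin2 and Plin3 in the same exact test.

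Per kilobase of the longest annotated transcript, Pnpla2 and Plin4 stood above the other 8 members in every library. Pnpla2 had 4309 normalized counts per kilobase and Plin4 had 4034, averaged over the 8 libraries, and their ranges overlapped. More than 98% of genes with a known length lay below either, at 98.3% for Pnpla2 and 98.1% for Plin4. Next came Plin5 at 629, Plin3 at 358, Plin2 at 325 and Abhd5 at 281 normalized counts per kilobase, with each overlapping the next. Lower means were those of Lipe at 152, Mgll at 134, Cidec at 118 and G0s2 at 84.0 normalized counts per kilobase, again overlapping one another in sequence. The lowest library of Plin4 lay above the highest of Plin5, and the lowest of Abhd5 above the highest of Lipe. Cidec and G0s2 reached higher in single libraries, with 238 normalized counts per kilobase in floxed control 3 for Cidec and 344 in knockout 7 for G0s2, and so overlapped the range of Abhd5, which began at 221. Plin4 and Pnpla2 together held 86.4% of the normalized counts of the 10 genes before scaling by length.

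The pair of highest level also had the smallest spread. Over all 8 libraries, Plin4 and Pnpla2 had an SD of 0.11 and 0.14 on the log2 scale, and 25.1% and 38.2% of genes within 2-fold of their level had a smaller SD. G0s2 (SD 1.15), Cidec (0.90) and Plin5 (0.64) varied more than most genes of their level, since 99.0%, 99.2% and 98.8% of those had a smaller SD. Plin2 (0.44) lay above 96.3% of genes of its level. The other 4 members were between 74.5% for Abhd5 and 88.3% for Mgll. These are spreads between single mice of both genotypes.

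**Figure D3:**
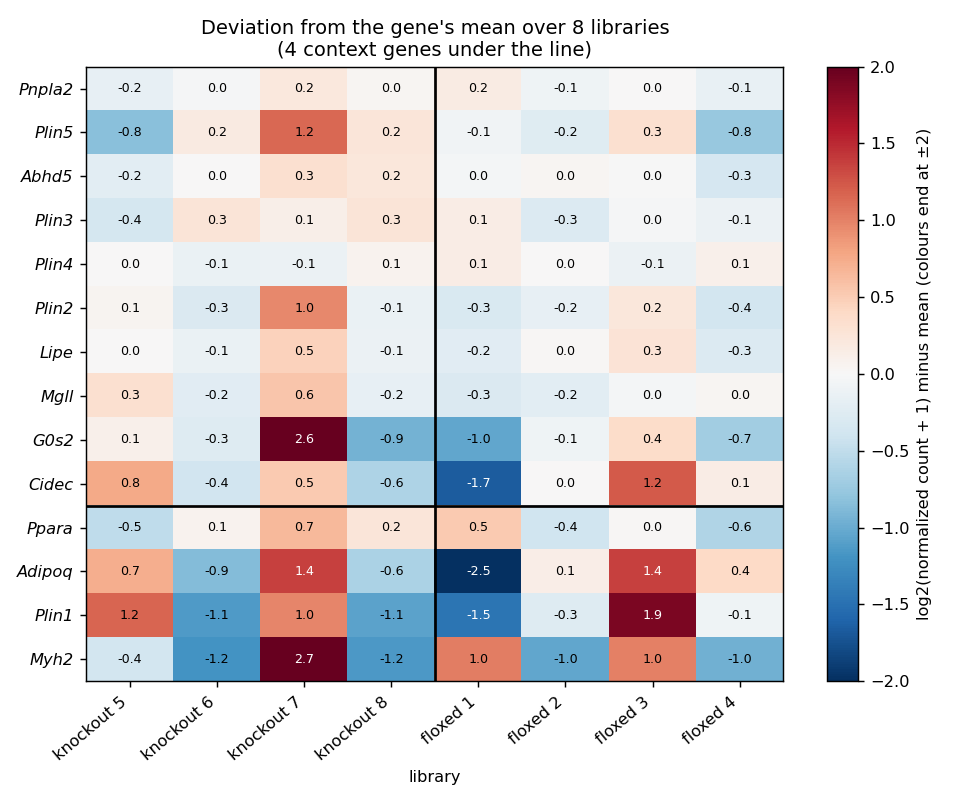
Deviation of each gene from its own mean over the 8 libraries, in log2(normalized count + 1) units, for the 10 members above the line and Ppara, Adipoq, Plin1 and Myh2 below it, with knockouts left of floxed controls; colours end at ±2. The column of knockout 7 is the most raised one, at 2.6 for G0s2 and 1.2 for Plin5, and Cidec has the same high and low libraries as Adipoq in floxed controls, 3 and 1.

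Across mice, some members moved together. Correlations here are Pearson r of log2 values over the 8 libraries, which hold both genotypes; they describe these libraries and have no test. Of 45 pairs, 7 had an r above 0.8, and without knockout 7 there were 4, of which 3 were above 0.8 in both. Plin2, Lipe and G0s2 had high values with one another, with r = 0.95 for Plin2 and G0s2 (0.75 without knockout 7), 0.94 for Plin2 and Lipe (0.93) and 0.92 for Lipe and G0s2 (0.86). Mgll joined them with r = 0.81 both for Plin2 (0.48 without knockout 7) and for G0s2 (0.46), and Cidec had an r of 0.58 with G0s2 that was 0.86 without knockout 7. Plin5 went with the activator Abhd5, at r = 0.89 (0.82 without knockout 7), and with Pnpla2, at 0.84 (0.71). Plin5 and Plin2, coat proteins of the same family, had an r of 0.71, which was 0.20 without knockout 7. Plin4 had a correlation below 0 with all 9 other members, the lowest being -0.73 with Lipe, and was at r = -0.59 with Plin5, its neighbour on the chromosome. Without knockout 7, r was 0.17 for Plin4 with Pnpla2 and -0.044 for Plin4 with Mgll.

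Relative levels of regulator and lipase were compared per kilobase, in 3 ratios that were chosen after the values had been seen. The ratio of G0s2 to Pnpla2 was 1.60%, 1.12%, 6.92% and 0.66% in knockouts 5 to 8, against 0.56%, 1.33%, 1.73% and 0.89% in floxed controls 1 to 4. Means were 2.57% ± 2.92 in knockouts and 1.13% ± 0.507 in floxed controls (SD, n = 4 each; exact permutation p = 0.514, adjusted over the 3 ratios 0.771). Knockout 7 alone lay outside the range of the floxed controls on the high side. The ratio of Abhd5 to Pnpla2 was 6.81% ± 0.490 in knockouts and 6.199% ± 0.662 in floxed controls (SD, n = 4 each; exact permutation p = 0.2, adjusted 0.6). Plin5 stood at 202% ± 70.4 of Plin2 in knockouts and 183% ± 32.8 in floxed controls (SD, n = 4 each; exact permutation p = 0.83, adjusted 0.83). In every library the transcript of the activator was more abundant per kilobase than that of Lipe, and the inhibitor stayed at or below 6.92% of its lipase.

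Several members are also strongly expressed in adipocytes, which lie between the fibres of a dissected muscle. In bulk tissue, fewer cells of a type and less RNA per cell cannot be told apart. The summed level of 14 adipocyte markers was 2993 to 5530 normalized counts in knockouts and 2690 to 5237 in floxed controls, none of the markers was at 0 in every library, and 6 of 12 tested markers were higher in the knockout. Most of the sum is Fabp4, which capillary endothelium also expresses. Adipoq, the adiponectin gene and the more specific marker, had 120, 39.2, 188 and 46.0 normalized counts in knockouts 5 to 8, against 11.8, 79.2, 188 and 95.1 in floxed controls 1 to 4. Plin1, the adipocyte perilipin, had 112, 21.8, 97.8 and 23.0 in knockouts 5 to 8, against 17.2, 40.9, 183 and 46.2 in floxed controls 1 to 4. Both markers were high in knockouts 5 and 7 and in floxed control 3, and low in floxed control 1.

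Cidec followed the adipocyte sum across the 8 libraries, with r = 0.90 and rho = 0.88 (exact permutation p = 0.00196 and 0.00724, adjusted over 20 relations 0.0196 and 0.0724). With the 2 libraries farthest from the median of the sum left out, floxed control 3 and knockout 7, the r of Cidec was 0.92. For Plin2 r was 0.82 and rho 0.81 (exact permutation, adjusted p = 0.0196 and 0.0871), and r without the same 2 libraries was 0.75. Lipe had an r of 0.87 and a rho of 0.83 (exact permutation, adjusted p = 0.0252 and 0.0769; r = 0.62 without the 2), and G0s2 an r of 0.79 and a rho of 0.93 (0.0252 and 0.0446; r = 0.67 without the 2). Mgll, at r = 0.81 and rho = 0.83, had an exact permutation p adjusted to 0.0566 and 0.0769 (r = 0.88 without the 2). By contrast r was 0.32 for Plin5, 0.20 for Abhd5, 0.0076 for Pnpla2, -0.38 for Plin3 and -0.57 for Plin4, and none of these passed an adjusted p of 0.05 in the exact test. Within the groups, after subtraction of each group's mean, r was 0.90 for Cidec, 0.83 for Plin2, 0.87 for Lipe, 0.79 for G0s2 and 0.83 for Mgll. Leaving out floxed control 3 and knockout 7 also moved the members of low r, to -0.86 for Pnpla2, -0.80 for Plin3, -0.71 for Plin5, -0.37 for Abhd5 and -0.10 for Plin4, so the values of these members over 8 libraries rested on those 2. The part that adipocytes have in the counts of any member, Cidec, Plin2, Lipe, G0s2 and Mgll included, was not tested.

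**Figure D4:**
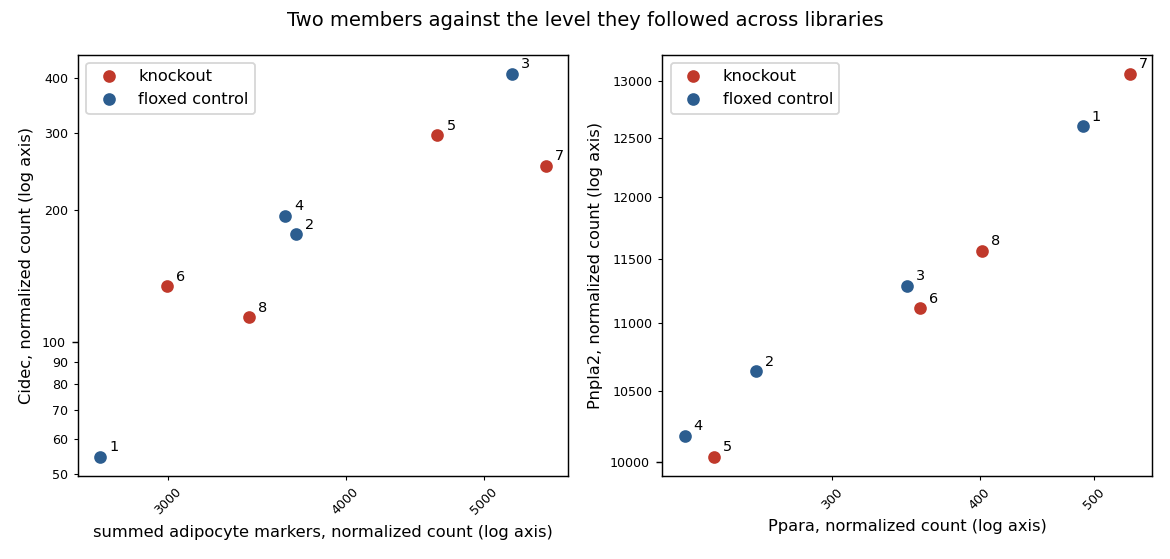
Left, Cidec against the summed level of 14 adipocyte markers; right, Pnpla2 against Ppara; each point is 1 library, numbered by replicate, knockouts in red and floxed controls in blue, both axes normalized counts on a log scale. Both genotypes lie along the same trend in each panel, with r = 0.90 on the left and 0.98 on the right. Ppara was picked for the highest r with Pnpla2 among 9128 genes.

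None of the 10 correlations of the members with the slow and oxidative fibre sum passed an adjusted p of 0.05 in the exact permutation test. Most of this sum was Myh2. The highest r was that of Plin2, at 0.81 (exact permutation, adjusted p = 0.074) with a rho of 0.38. Pnpla2 followed at r = 0.75 (exact permutation, adjusted p = 0.0933), and without floxed control 1 and knockout 7 its r was 0.12. Plin5, known from oxidative muscle, had an r of 0.67 and a rho of 0.36 (exact permutation, adjusted p = 0.141 and 0.708), and r was 0.23 without those 2 libraries. Without the same 2, r was 0.85 for Plin2, 0.83 for Lipe and 0.78 for G0s2, and 0.89 for Cidec, which had an r of 0.19 over all 8. Knockout 7 was highest both in this sum and in 7 members, and whether its fibre type bears on their levels was not tested.

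Among 9128 other genes with a mean of at least 100 normalized counts, the one whose log2 values were most like those of Pnpla2 was Ppara. It encodes a PPAR of fasting muscle and liver, and its r was 0.98 over 8 libraries (0.97 without knockout 7). The PPAR gene Ppard had no row and was not compared. Ppara had 238, 356, 536 and 402 normalized counts in knockouts 5 to 8, against 489, 258, 347 and 225 in floxed controls 1 to 4. Like Pnpla2, it was highest in knockout 7 and floxed control 1 and low in knockout 5 and floxed control 4. Next came Mgat2, an enzyme of N-glycan synthesis, at r = 0.96, and the splicing factor gene Syf2, at 0.95. For G0s2, of 9129 genes, the most alike were Plin2 at r = 0.95, Zbtb24, a zinc finger protein gene, at 0.94 and Acox3, a peroxisomal oxidase of branched acyl-CoA, at 0.92. Without knockout 7 these were 0.75, 0.92 and 0.62. Each is the best of all these correlations, over 8 points.

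None of the other genes around the droplet was called by limma, and 0 of the 13141 genes tested were. Of 12 tested genes of further droplet proteins, 6 were higher and 6 lower, with a median difference of 0.0058. At an unadjusted limma p of 0.05 they numbered 0, beside 6.16% of all genes tested. Scaled to the same total, 9 of 12 were higher. Fitm1 and Fitm2, whose products partition new triglyceride into droplets, were at 0.20 (SE 0.110) and 0.20 (SE 0.125), and Tmem159, a seipin partner, at 0.15 (SE 0.129). The limma adjusted p was 0.746, 0.751 and 0.806. Of 11 further intracellular lipases, 6 were higher and 5 lower, with a median of 0.038. Ces1d, a triglyceride hydrolase, was at 0.47 (SE 0.257), Pnpla7, a lysophospholipase, at -0.14 (SE 0.119) and Abhd6, a monoacylglycerol lipase, at 0.35 (SE 0.313).

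Signalling towards lipolysis had 10 of 23 tested genes higher and 13 lower, with a median of -0.025. The direction was not stable: with libraries scaled to the same total, 13 of 23 were higher with a median of 0.016, and 12 of 23 were higher without knockout 6, knockout 8 or floxed control 3. At an unadjusted limma p under 0.05 there were 2 lower genes, beside 6.16% of all genes tested, and neither was called after adjustment. Adcy9, an adenylyl cyclase, was at -0.29 (SE 0.112) and the insulin receptor gene Insr at -0.19 (SE 0.0807), each with 3 of 4 knockouts below every floxed control (limma adjusted p = 0.746 for both). Pde3a, a phosphodiesterase that breaks down cAMP, was at 0.20 (SE 0.118).

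Of 23 PPAR receptors and genes they control in fasting, 20 were higher and 3 lower, with a median of 0.20. Limma called 0 of them, and 0 of the 13141 genes tested. At an unadjusted p under 0.05 there was 1 higher, Decr1, an auxiliary enzyme of beta-oxidation, at 0.34 (SE 0.133). The 1 lower was the retinoid receptor gene Rxra, at -0.24 (SE 0.0934). Of all genes tested, 6.16% passed that threshold. Slc22a5, the carnitine transporter gene, was at 0.35 (SE 0.159). Without knockout 7, 16 of the 23 were higher and the median was 0.057. Leaving out floxed control 4 gave a median of 0.0997 and leaving out knockout 5 gave 0.33. Fabp3, the muscle fatty acid carrier, was highest in knockout 7. It had 2778, 3028, 8995 and 3626 normalized counts in knockouts 5 to 8, against 3774, 3232, 4305 and 1812 in floxed controls 1 to 4. Fabp3 was named after its values were seen.

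Triglyceride synthesis had 7 of 14 tested genes higher and 7 lower, with a median of -0.0014, and 10 of 14 were higher when libraries were scaled to the same total. Lpin2, a phosphatidate phosphatase, was at -0.60 (SE 0.228) and the acyltransferase gene Agpat4 at 0.55 (SE 0.238), both with a limma adjusted p of 0.746. Agpat4 was the single gene of the 5 lists whose groups did not overlap, beside 2.75% of all genes tested. It had 49.6 to 61.0 normalized counts in knockouts and 25.8 to 48.2 in floxed controls. Gpat3, which starts glycerolipid synthesis, was at 0.32 (SE 0.222, limma adjusted p = 0.765). Dgat2, which adds the last acyl chain, had 586, 601, 1896 and 727 normalized counts in knockouts 5 to 8, against 906, 535, 965 and 447 in floxed controls 1 to 4, the highest again being knockout 7; it was also named after its values were seen.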

How the data were processed

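The authors deposited log2 values for 54091 genes in 8 libraries, of which 28495 genes were at 0 in every library. Per the submitters' processing notes, the tools were STAR, HTSeq, cutadapt, FastQC and DESeq2, with no version named, and the build was GRCm38. Neither the annotation release nor the strand setting is given in the sources used here. From the values themselves, each is log2(n + 1), where n is a read count divided by a size factor of its library: up to 200 reads, 100% of values were within 0.1 read of a whole number. Each title carries a different mouse number, and replicates were treated as separate animals. Libraries were compared in pairs on recovered reads, and the most alike pair, knockout 5 and floxed control 4, had a chi-square of 20.0 per degree of freedom.

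Genes with a mean of at least 10 normalized counts were tested (13141) by limma 3.58.1 under R 4.3.3, using lmFit and eBayes with trend. The p-values were adjusted over all of them by Benjamini-Hochberg. Single values were compared by exact permutation with numpy 2.4.6 in Python 3.11.15. Ranks and the adjustment of the correlation p-values used scipy 1.17.1, and figures were drawn with matplotlib 3.10.9. The pseudocount of 1, already in the deposited values, understates differences of low genes. Levels per kilobase used the longest GENCODE transcript, known for 12722 tested genes. Simulated data with known changes were used to test the fitting. Their noise was drawn separately for each gene, so variation that genes share within a mouse was not simulated. The 10 members and all gene lists were chosen with earlier results of these data known. Besides the members and Acot2, the 3 genes of the smallest p in each pathway list and the 3 genes most alike to the member of largest spread and to that of highest level were named; cell type markers are named where they bear on a member. Of 24 entries of the PPAR list, 1 had no row and was not analysed here. It was Ppard, itself a PPAR gene, so its level in this muscle is not known from these values. Exact p-values of the correlations with marker sums were added to the design. Alternatives covered the pseudocount, the filter, scaling, robust and weighted fits, voom, mouse number range and each library left out.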

Additional observations from a re-analysis of the deposited data

Results flagged for a closer look

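G0s2 was flagged because 1 knockout lies far from the other 3. On the scale of normalized counts, the gap between knockout 7 and the next library was 0.899 of the range of the knockouts, above Dixon's 95% critical value for 4 samples; on the log2 scale it was 0.705, below it. Insr, the insulin receptor gene, was flagged for its lowest floxed control, number 3, whose gap was 0.845 of the range on the log2 scale and 0.841 on normalized counts. In all, 52 groups of 4 libraries over 26 genes were examined on both scales, with 1 flag on log2 values and 2 on normalized counts, where chance flags about 1 in 20 groups.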

How the results depend on the processing

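Over 18 alternatives, none of the 10 members passed a limma adjusted p of 0.05, and 171 of 180 member differences kept their sign. The 9 that did not were all close to 0 or in Cidec. Cidec was -0.0133 with library weights and -0.0132 without floxed control 4 and knockout 5, and ran from -0.387 to 0.572 when single libraries were left out. Over the same omissions, G0s2 ran from -0.0051 to 1.16, Pnpla2 from -0.034 to 0.093 and Lipe from -0.031 to 0.21, and the number of members above 0 from 5 (without knockout 7) to 9. The number of genes past an unadjusted p of 0.05 was 1362 without the filter on low values, 1467 with library weights, 1509 without floxed control 4 and knockout 5, and 367 (without floxed control 4) to 2200 (without knockout 5) with 1 library left out; the cause was not tested. Scaled to the same total, 491 such genes were higher and 248 lower, against 324 and 486 as deposited, and with the upper quartile 435 and 368; 9 members were above 0 in each. Without the filter, 1 gene, Acot2, passed an adjusted p of 0.05, and 10 further lipases were higher since more were tested. The edgeR quasi-likelihood test, planned for deposited counts, was not run. Instead, voom took the recovered reads. No paired analysis was possible because replicate numbers run from 1 to 8 over the series and the groups share none. Depth limits G0s2 most, at 23.6 normalized counts in its lowest library, and 4 mice per group limit every member.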
